A study of Mus musculus with 12 samples.

Results

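The comparison described here is knockdown of Creb1 in mouse CD8+ T cells that were also treated with trans-vaccenic acid (TVA), a trans fatty acid of ruminant milk and meat. It used 6 of the 12 libraries of the study: 3 libraries labelled siCreb1 plus TVA (Creb1 KD genotype) and 3 labelled siNTC plus TVA (WT genotype, non-targeting siRNA). The other 6 libraries were siCreb1 and siNTC cells that received the DMSO vehicle in place of TVA, and they entered only where the effect of knockdown was set beside that without TVA. All cells were primary T cells from C57BL/6 spleen and lymph nodes that had been activated through CD3 and CD28 and given siRNA before the 24 h treatment. siRNA lowers a transcript without deleting the gene, and no label says that same-numbered libraries came from the same animal, so p-values measure the spread between these libraries, which may be technical.

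Expression was given as FPKM, fragments scaled by gene length and by the fragments mapped in the library. Of 54532 listed genes, 26778 were above 0 in at least 1 of the 6 libraries and 11571 had a mean FPKM of 1 or more over the 6, and these 11571 were tested. Zik1 lay just inside that limit at 1.00 and 4930466K18Rik just outside it at 0.999. Fold changes are differences of log2(FPKM + 1), siCreb1 plus TVA minus siNTC plus TVA, with 3 libraries a group, from limma with p-values adjusted over the 11571 genes by the Benjamini-Hochberg method; a gene was called at an adjusted p under 0.05. Reads recovered from the FPKM steps were 16660234 to 20263843 in the siNTC plus TVA libraries and 21804748 to 24602484 in the siCreb1 plus TVA libraries, so depth did not overlap between the groups. The part of depth in the results was not tested beyond the scalings given beside them.

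CREB1 is a leucine-zipper transcription factor that sits on cAMP response elements (CREs) in promoters. When cAMP rises, protein kinase A phosphorylates it, and the coactivators CBP, p300 and the CRTC proteins are recruited. In T cells it is known for a part in activation, cytokine expression, survival and proliferation. The comparison asks which transcripts differ when Creb1 is reduced while TVA is present.

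Creb1 (ENSMUSG00000025958, GRCm38 chromosome 1, 64532645 to 64604548) was at 11.03, 11.97 and 12.42 FPKM in the siNTC plus TVA libraries and at 1.81, 1.67 and 1.17 FPKM in the siCreb1 plus TVA libraries. All 3 knockdown libraries were far below all 3 controls, and the mean of 1.55 ± 0.338 FPKM (SD, n = 3) was 13.1% of the control mean of 11.8 ± 0.711 FPKM (SD, n = 3). The log2 fold change was -2.34 (SE 0.107, limma adjusted p = 2.41e-06). An exact permutation test over the 6 libraries gave p = 0.1 (two-sided), the smallest that 3 against 3 allows. Without TVA the fold change was -2.27, and the 2 effects differed by -0.07 (interaction, limma adjusted p = 0.895). Creb1 was the largest fall on this scale.

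**Figure D1:**
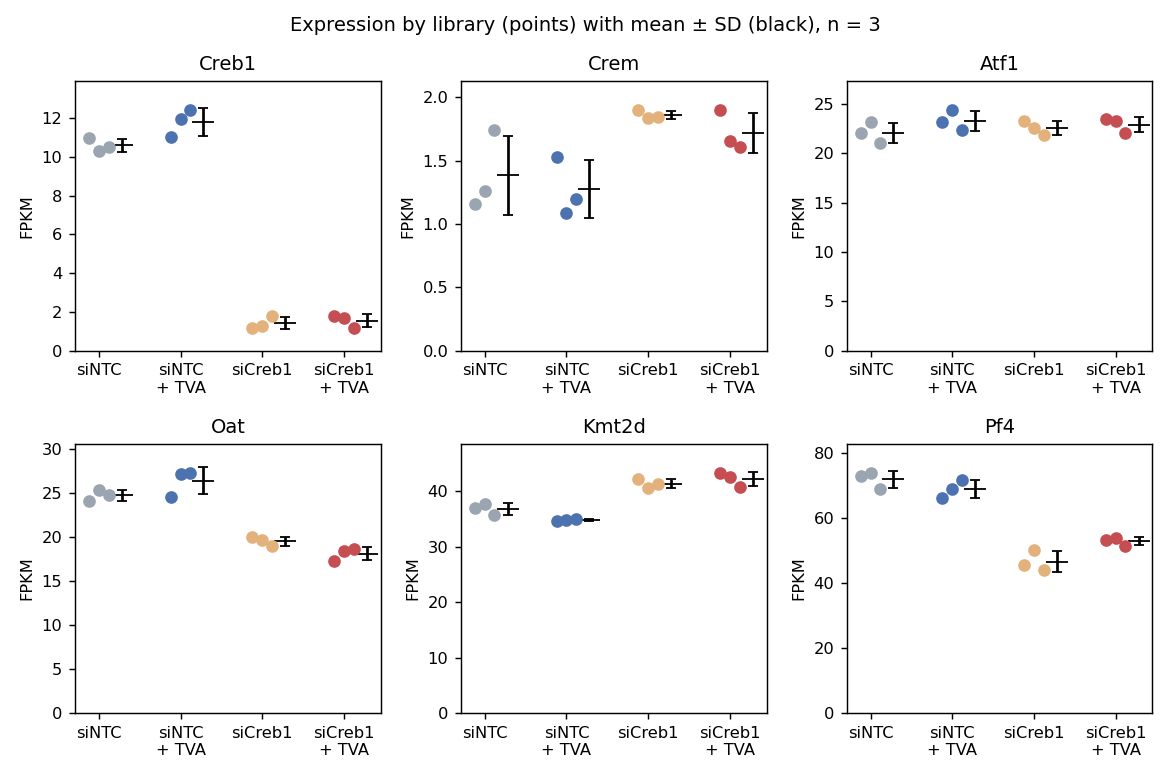
FPKM of 6 genes in each of the 12 libraries (points, coloured by group), with the mean ± SD of each group of 3 in black; every axis starts at 0. Creb1 was at 1.17 to 1.81 FPKM in siCreb1 plus TVA against 11.0 to 12.4 in siNTC plus TVA, Oat and Pf4 were lower and Kmt2d higher in siCreb1 plus TVA, and Atf1 overlapped between the groups.

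Knockdown in TVA-treated cells called 1175 of 11571 genes (10.2%), 538 of them higher (4.65% of genes tested) and 637 lower (5.51%). Most differences were small. The median size was 0.23 among the genes that rose and 0.18 among those that fell on the log2(FPKM + 1) scale, 388 of the 637 falls were under 0.2, and only 53 rises and 14 falls reached 0.5. The split of higher against lower depended on the scaling: calls were 622 higher and 121 lower as TPM, 600 and 348 after quantile normalisation, and 915 and 622 by limma-voom on recovered reads. The median of all tested genes was -0.01 as deposited and 0.04 as TPM. In each of the 6 scalings 432 of the 538 rises and 113 of the 637 falls were called. The summed FPKM of all genes, by which TPM divides, was 351107 to 373372 in siNTC plus TVA and 338614 to 351019 in siCreb1 plus TVA. Leaving out any 1 of the 6 libraries left 604 to 759 calls.

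**Figure D2:**
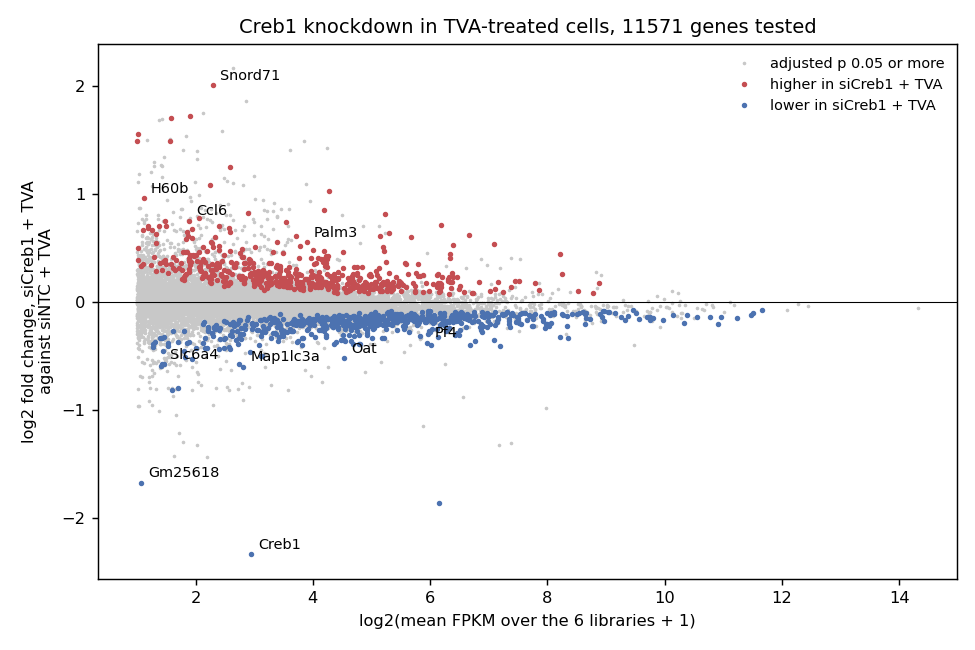
Log2 fold change of each of the 11571 tested genes (siCreb1 plus TVA against siNTC plus TVA) against log2(mean FPKM + 1) over the 6 libraries, with the 538 genes called higher in red and the 637 called lower in blue. Creb1 lies at -2.34, and most called genes lie within 0.5 of zero.

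Below Creb1, the largest falls among protein-coding genes were in transcripts of low or moderate level. These protein-coding genes and the rises below were chosen after values were seen, because short RNAs lead the full ranking. Oat encodes ornithine aminotransferase, a mitochondrial enzyme that converts ornithine. It was at 24.6, 27.2 and 27.3 FPKM in siNTC plus TVA and at 17.2, 18.4 and 18.7 FPKM in siCreb1 plus TVA, with no overlap. Its fold change was -0.52 (SE 0.0446, limma adjusted p = 0.000312), and it stayed called under all 18 alternatives; its interval overlaps the long annotated interval of Fgfr2 on the same strand. Slc6a4, the serotonin transporter, was at 1.99, 2.64 and 2.08 FPKM in siNTC plus TVA and 1.25, 1.33 and 0.929 FPKM in siCreb1 plus TVA, a fold change of -0.58 (SE 0.103, limma adjusted p = 0.00744). Bag2, a co-chaperone of HSP70, was at 2.11, 2.71 and 2.04 FPKM against 1.38, 1.19 and 1.04 FPKM, a fold change of -0.58 (limma adjusted p = 0.0151), a call lost without siNTC plus TVA replicate 2 or siCreb1 plus TVA replicate 3. Map1lc3a, an autophagosome protein of the LC3 family, fell by 0.60, from 7.42 ± 0.986 to 4.64 ± 1.28 FPKM (SD, n = 3; limma adjusted p = 0.0311), a call lost in 7 of the 18 alternatives, which included leaving out siNTC plus TVA replicate 1 or 2 or siCreb1 plus TVA replicate 2 or 3. The other large falls were Tmem40, Pdlim4, 2610524H06Rik, Mcee, Chrnb1, 1500009L16Rik and Evi2a, at -0.59 to -0.44. Mcee encodes methylmalonyl-CoA epimerase of propionate breakdown. Chrnb1 is a muscle acetylcholine receptor subunit, and its level stood at 2.14 FPKM in siNTC plus TVA and 1.29 FPKM in siCreb1 plus TVA. Evi2a lies inside an intron of Nf1 on the other strand; whether the counting used strand is not given in the sources used here, so reads of the pair cannot be told apart.

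Among protein-coding genes that rose, H60b, a ligand of the NKG2D receptor, had the largest fold change. It was at 0.223, 0.248 and 1.01 FPKM in siNTC plus TVA and 2.06, 1.91 and 1.57 FPKM in siCreb1 plus TVA, or 5, 5 and 25 reads against 60, 58 and 42. Its fold change was 0.97 (limma adjusted p = 0.0194), a call lost when siNTC plus TVA replicate 1 or 2 or siCreb1 plus TVA replicate 1 or 2 was left out, and its interval shares bases with Raet1e. Palm3, a paralemmin, was at 11.7, 11.3 and 10.3 FPKM and at 16.4, 16.4 and 17.3 FPKM, with every knockdown library above every control, a fold change of 0.55 (SE 0.0504, limma adjusted p = 0.000327). Palm3 overlaps Il27ra on the other strand. Ccl6, a CC chemokine of myeloid cells, rose from 1.77 ± 0.345 to 3.67 ± 0.520 FPKM (SD, n = 3; fold change 0.76, limma adjusted p = 0.00380). Gpnmb, a membrane glycoprotein of macrophages and melanocytes, rose from 0.966 ± 0.0645 to 2.05 ± 0.180 FPKM (SD, n = 3; fold change 0.63, limma adjusted p = 0.00124). Rec114, Heatr9, Degs2, Mss51, Vasn, Tnfrsf4, Lilrb4a and Cfp rose by 0.71 to 0.44. In siNTC plus TVA the means of H60b, Rec114 and Gpnmb were 0.495, 0.729 and 0.966 FPKM, under the limit of 1. They entered the test only through siCreb1 plus TVA, so their calls draw on the values that let them in. Cfp is properdin of the complement system and Lilrb4a an inhibitory receptor of myeloid and some T cells.

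Over all gene types, 9 of the 12 largest rises were genes of 48 to 86 bases that had 0 to 91 reads a library. They were the snoRNAs Snord71 and Gm25632, Mir6957, Mir7663, Gm24379 and the immune receptor segments Traj39, Traj5, Traj2 and Ighj3. Mir7663 had 0 reads in all 3 siNTC plus TVA libraries and 5, 2 and 2 reads in siCreb1 plus TVA, and Gm24379 had 0 against 2, 3 and 7. Mir6957 and Gm25632 had means of 0.512 and 0.829 FPKM in siNTC plus TVA. Mir7663, Gm24379, Mir6957 and Gm25632 thus passed the limit of 1 FPKM only through siCreb1 plus TVA, where they were high. Snord71, Gm25632, Mir6957, Mir7663 and Gm24379 each lie within a longer gene on the same strand. The remaining rises were the pseudogene Gm12188, the lincRNA Gm47242 and H60b. Among the 12 largest falls, the snRNA Gm25618 had 4, 4 and 5 reads in siNTC plus TVA and 0 in siCreb1 plus TVA. It passed the limit only through siNTC plus TVA, where it was high. Rps26-ps1, a pseudogene that shares sequence with Rps26, was at 166, 87.4 and 66.7 FPKM against 23.4, 12.1 and 64.6 FPKM, a spread within each group that exceeds that of the coding genes above. Gm20568 and Gm16437 are processed pseudogenes at 4 to 14 and 14 to 47 reads, and 4933406I18Rik is a lincRNA with a fold change of -0.58. Reads of pseudogenes and of their parent genes may be split by the counting.

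Among the members of the CREB family and its coactivators, 2 of 16 tested genes (12.5%) rose and 1 (6.25%), Creb1, fell, with a median fold change of 0.05. Over all genes tested 4.65% were called higher and 5.51% lower. Crtc1, a CRTC coactivator, was at 3.04, 3.02 and 3.07 FPKM in siNTC plus TVA and 3.76, 3.84 and 3.76 FPKM in siCreb1 plus TVA (fold change 0.24, limma adjusted p = 0.00959). Atf7, a leucine-zipper factor related to ATF2, rose by 0.21 (limma adjusted p = 0.0219), and it overlaps Gm28047. Crem, the close relative whose gene also encodes the ICER repressors, was at 1.53, 1.09 and 1.20 FPKM against 1.90, 1.65 and 1.61 FPKM, which did not overlap, but its fold change of 0.26 (SE 0.106) was not called (limma adjusted p = 0.146). Atf1, the other close relative, was at 23.1, 24.4 and 22.3 FPKM against 23.4, 23.2 and 22.0 FPKM, a difference of -0.02 (SE 0.0441). Neither Crebbp nor Ep300, which encode CBP and p300, nor Crtc2 or Crtc3 was called, at fold changes of 0.06, 0.01, 0.09 and 0.01.

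In the cAMP and protein kinase A list, 2 of 30 tested genes rose (6.67%) and 2 fell (6.67%), beside 4.65% and 5.51% of all genes. The median was 0.00. Prkar2b, a regulatory subunit of the kinase, fell by 0.34 from 5.27 ± 0.536 to 3.95 ± 0.130 FPKM (SD, n = 3; limma adjusted p = 0.0438). Gnai2, the inhibitory G protein subunit that opposes adenylyl cyclase, fell by 0.11. Akap8, a kinase anchor of the nucleus, rose by 0.18, and Adcy7, an adenylyl cyclase of blood cells, rose by 0.13. The falls were not called as TPM, the rises were called under all 6 scalings. The catalytic subunits Prkaca and Prkacb stood at -0.12 (SE 0.0774) and -0.04 (SE 0.0336) and were not called. Among 29 textbook CREB targets, 2 fell and none rose, with a median of -0.04 that became 0.01 as TPM; 4 were lower and 2 higher at an unadjusted p under 0.05, against 3029 of 11571 genes in all. Those that fell were Pcna, the replication clamp, and Ccna2, cyclin A2, both cell cycle genes. Per1, Nr4a1 and Junb, immediate responders to cAMP, had fold changes of 0.02, -0.10 and -0.06 and were not called.

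The 8-base palindromic CRE, TGACGTCA, which reads the same on both strands, lies in 588 of 32851 RefSeq promoters of GRCm38.p6 (1.79%), each 250 bases before to 50 bases after a gene start. Its half-sites, TGACG or CGTCA, lie in 20.8% of them and overlap the full element. A promoter was matched for 8128 of the 11571 genes tested. Among protein-coding genes it was matched for 81.3% of those tested, 82.0% of the rises and 79.5% of the falls. Because part of each group had no matched promoter, shares were not compared between called groups, and the counts below are a description. The element was held by 313 of the 8128 tested genes with a promoter, by 20 of the 481 that fell and by 10 of the 389 that rose. It was in the promoter of neither Creb1, Oat nor Slc6a4, though those of Oat and Slc6a4 held a half-site. The 9 genes that held it and that were called lower with TVA and without are shown, picked after values were seen. They are 9 of the 20 falls with the element, and of all falls with TVA 41.8% were called lower without it. Ints7, Tra2a, Tdg and Zbtb21 also held the element, were called higher with TVA and without, and are not shown. A match describes letters only. The windows have 26 bases on each side of the element, run 5′ to 3′ along the gene, and carry the element in capitals.
Pcsk1 (chr13:75089753-75089812, + strand, element starting 78 bases before the start site): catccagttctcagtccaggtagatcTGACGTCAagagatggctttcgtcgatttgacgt
Glod4 (chr11:76243690-76243749, - strand, 24 bases before): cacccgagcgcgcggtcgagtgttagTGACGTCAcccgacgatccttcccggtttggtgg
Btg2 (chr1:134079288-134079347, - strand, 166 bases before): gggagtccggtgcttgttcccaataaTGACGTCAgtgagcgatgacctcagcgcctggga
Ppp2ca (chr11:52098772-52098831, + strand, 26 bases before): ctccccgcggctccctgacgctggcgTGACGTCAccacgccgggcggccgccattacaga
Rpl18 (chr7:45717966-45718025, + strand, 79 bases before): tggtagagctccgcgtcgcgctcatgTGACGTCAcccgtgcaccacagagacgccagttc
D17Wsu92e (chr17:27820699-27820758, - strand, 190 bases before): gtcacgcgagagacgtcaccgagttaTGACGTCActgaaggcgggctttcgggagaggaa
Mlf2 (chr6:124931353-124931412, + strand, 9 bases before): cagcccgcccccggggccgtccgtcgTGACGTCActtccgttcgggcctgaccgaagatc
Uqcrfs1 (chr13:30545312-30545371, - strand, 29 bases before): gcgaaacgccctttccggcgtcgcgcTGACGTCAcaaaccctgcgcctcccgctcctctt
Heca (chr10:17948187-17948246, - strand, 153 bases before, with a further element 117 bases before): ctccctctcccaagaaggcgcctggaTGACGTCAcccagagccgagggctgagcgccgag

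Their differences with TVA were small. Pcsk1, a prohormone convertase, had the largest, -0.39 (limma adjusted p = 0.0178), from 1.75 to 1.09 FPKM. Glod4 fell by 0.25 and Ppp2ca, the catalytic subunit of protein phosphatase PP2A, by 0.15. Btg2, an antiproliferative gene that is high in quiescent lymphocytes, was at 101, 93.6 and 97.6 FPKM in siNTC plus TVA and 84.7, 84.7 and 85.0 FPKM in siCreb1 plus TVA (fold change -0.19, limma adjusted p = 0.00298; -0.14 and not called as TPM). Without TVA the values of these genes were -0.33 for Pcsk1, -0.17 for Glod4, -0.22 for Ppp2ca and -0.30 for Btg2. The remaining genes of the set fell by 0.15 to 0.09 with TVA. Of the whole set, only Pcsk1 and Glod4 were called lower with TVA under every scaling. The calls of Btg2, Ppp2ca, Rpl18, D17Wsu92e, Mlf2, Uqcrfs1 and Heca depended on the scaling.

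Of 66 G2/M, spindle and kinetochore genes, 19 were called lower and none higher in the knockdown with TVA. Over all genes tested 5.51% were called lower and 4.65% higher. At an unadjusted p under 0.05, 40 of the 66 were lower and 0 higher, against 3029 of 11571 genes in all. In this list 62 of 66 fold changes were negative, with a median of -0.16 against -0.01 over all genes tested. Cdc20, the activator of the anaphase-promoting complex, was at 40.6, 37.8 and 43.4 FPKM in siNTC plus TVA and 32.4, 32.0 and 31.3 FPKM in siCreb1 plus TVA, with no overlap (fold change -0.34, SE 0.0537, limma adjusted p = 0.00487). Cdc25b, the phosphatase that activates cyclin-dependent kinase 1, was at 33.4, 33.0 and 31.5 FPKM against 25.9, 26.6 and 26.4 FPKM (fold change -0.30, limma adjusted p = 0.000439). Cdk1 fell by 0.27, Aurkb, a kinase of chromosome segregation, by 0.23, and Ube2c, a ubiquitin enzyme of mitotic exit, by 0.23. Mki67, a proliferation antigen, stood at -0.06 and was not called. The number called lower was 4 as TPM, 17 after quantile normalisation and 22 by limma-voom, and it ran from 8 to 14 when 1 of the 6 libraries was left out, with the fewest without siCreb1 plus TVA replicate 1. The median was negative in all of these scalings.

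Of the DNA replication genes, 12 of 66 were called lower by limma and none higher, beside 5.51% and 4.65% of all genes. The median was -0.10. At an unadjusted p under 0.05, 28 were lower and 1 higher, against 3029 of 11571 genes in all. The number called lower was 2 as TPM, 6 after quantile normalisation, 8 by limma-voom and 13 after median centring. Without 1 library it was 3 to 7. Pcna was at 138, 137 and 140 FPKM in siNTC plus TVA and 121, 119 and 120 FPKM in siCreb1 plus TVA (fold change -0.20, limma adjusted p = 0.000327), and Cdt1, which licenses replication origins, fell by 0.31. Rrm2, the ribonucleotide reductase subunit, fell by 0.18 and Mcm7, a helicase subunit, by 0.14.

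Without TVA most genes of both lists were called higher in the knockdown. Of the 66 mitosis genes 49 were called higher and 1 lower without TVA, with a median of 0.27, and of the 66 replication genes 44 were called higher and none lower, with a median of 0.24. Over all genes 6.53% were called higher and 7.22% lower in that comparison. The interaction, fitted over all 12 libraries, was called in 268 genes, 55 with a higher effect under TVA (0.475% of those tested) and 213 with a lower one (1.84%). In the mitosis list 50 of 66 interactions were called, all lower with TVA, with a median of -0.43, and in the replication list 33 of 66, also all lower, with a median of -0.35. Across the 6 scalings the interaction was called in 41 to 58 of the mitosis genes and 26 to 42 of the replication genes, and in none in the other direction. The levels show the order of the groups: the mean log2(FPKM + 1) of the mitosis list was 3.44 to 3.45 in siNTC, 3.70 to 3.72 in siCreb1, 3.74 to 3.75 in siCreb1 plus TVA and 3.88 to 3.89 in siNTC plus TVA, and these ranges did not overlap. The mean of the list was 0.44 higher with TVA in siNTC cells and 0.04 higher with TVA in siCreb1 cells. In the replication list the same order held, at 3.31 to 3.33, 3.57 to 3.58, 3.63 to 3.65 and 3.72 to 3.75.

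**Figure D3:**
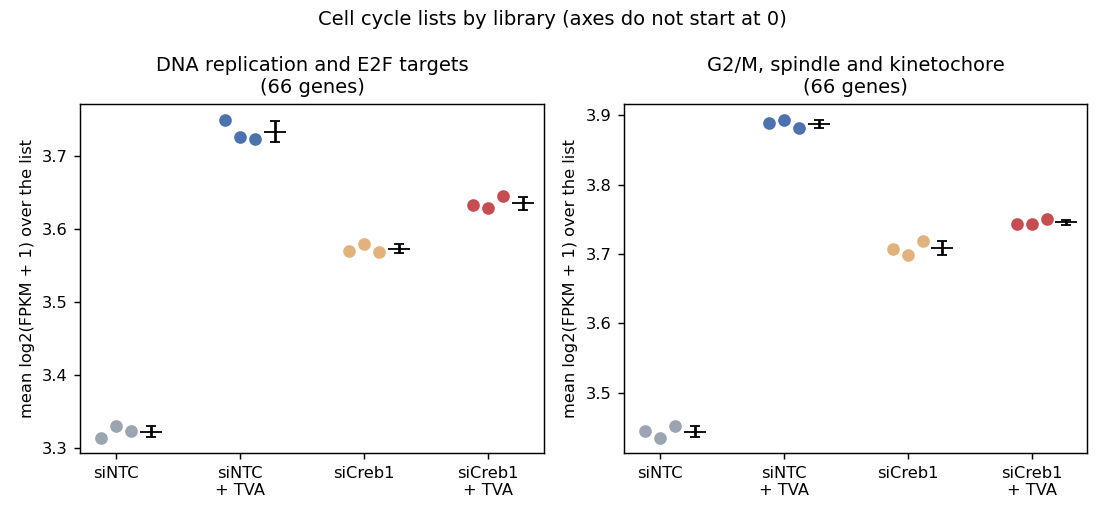
Mean log2(FPKM + 1) over the 66 DNA replication genes (left) and the 66 mitosis genes (right) in each library (points) with the mean ± SD of each group of 3 in black; the axes do not start at 0. In both lists siNTC is lowest, siNTC plus TVA highest, and the siCreb1 groups lie between them.

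Single genes of the lists reversed between the settings. Rrm2 fell by 0.18 with TVA and rose by 0.39 without it (interaction -0.57, limma adjusted p = 0.000122). Aurkb fell by 0.23 and rose by 0.37 (interaction -0.61, limma adjusted p = 0.00111), and Pcna fell by 0.20 and rose by 0.18 (interaction -0.38, limma adjusted p = 9.3e-05). Of the 637 falls with TVA, 54 were called higher without it, 25 of them in these 2 lists, while 3 of the 538 rises were called lower without it.

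Counted over all called genes, the 2 knockdown comparisons, which share no library, mostly pointed the same way. The mitosis and replication lists, whose called genes these counts include, had medians of opposite sign. Of the 538 rises with TVA, 479 (89.0%) had a positive fold change without TVA, and of the 637 falls 502 (78.8%) had a negative one. Over all genes tested the sign was the same in 64.5%. Rises called in both were 241, which is 44.8% of the rises with TVA and 31.9% of the 756 rises without it. Falls called in both were 266, or 41.8% of the falls with TVA and 31.9% of the 835 without it. The interaction was called in 23 of the rises and 86 of the falls.

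Among T cell gene lists the called members went both ways. Over all genes tested 5.51% were called lower and 4.65% higher, against 21.1% and 5.26% in the naive, memory and quiescence list. In the naive, memory and quiescence list, 8 of 38 fell and 2 rose, with a median of -0.03 that was 0.03 both as TPM and after quantile normalisation, where 1 and 3 fell, against 8 by limma-voom. S1pr1, the receptor that lets T cells leave lymph nodes, was at 175, 175 and 177 FPKM against 148, 149 and 152 FPKM (fold change -0.23, limma adjusted p = 0.000139), called under all 6 scalings. It fell by 0.45 without TVA, and the effects differed by 0.22 (limma adjusted p = 0.00171). Klf2, the factor that drives S1pr1, fell by 0.20, and Ccr7, the lymph node homing receptor, by 0.17. Myb, a stemness factor of CD8+ T cells, rose by 0.22. Tcf7 stood at -0.03 (SE 0.0211) and Il7r at -0.07 (SE 0.0323), not called.

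Of 34 cytotoxic and effector genes, 5 fell (14.7%) and 2 rose (5.88%), beside 5.51% and 4.65% of all genes tested. The median of -0.02 was 0.03 as TPM. Ccl4, a chemokine of activated T cells, fell by 0.28, Cxcr6, a tissue homing receptor, by 0.21, and Lamp1, a lytic granule membrane protein, by 0.20. Ctsw, a granule cathepsin, rose from 207 ± 1.45 to 235 ± 2.57 FPKM (SD, n = 3), and Runx3, a factor of the cytotoxic program, rose by 0.15. Gzmb, Prf1, Ifng and Tnf were not called, at 0.05 (SE 0.0329), -0.13 (SE 0.101), -0.01 (SE 0.136) and -0.07 (SE 0.105). In the checkpoint list, 3 of 17 rose (17.6%) and 1 fell (5.88%), with a median of -0.06. Tigit, an inhibitory receptor, fell by 0.42 from 4.10 to 2.81 FPKM (limma adjusted p = 0.0370), a call not held under every scaling. Tnfrsf4, the costimulatory receptor OX40, rose by 0.47, Ikzf2, the factor Helios, by 0.26, and Btla, another inhibitory receptor, by 0.17. Of the checkpoint list only Ikzf2 was called under all 6 scalings.

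Of 48 genes of the T cell receptor and its proximal signals, 5 rose (10.4%) and 3 fell (6.25%), beside 4.65% and 5.51% of all genes tested. The median of -0.02 was 0.03 as TPM and 0.02 after quantile normalisation. Dgka, the diacylglycerol kinase that dampens signalling, was at 171, 167 and 171 FPKM in siNTC plus TVA and 195, 197 and 194 FPKM in siCreb1 plus TVA, with no overlap (fold change 0.20, limma adjusted p = 0.000343). Its fold change without TVA was -0.01, and the difference of 0.21 was called (limma adjusted p = 0.00280). Cbl, a ubiquitin ligase of the same pathway, Plcg1 and Ptprc rose by 0.16, 0.14 and 0.09. Cd8a rose by 0.09 while Cd8b1 fell by 0.14. The rise of Cd8a was called under all 6 scalings, but Cd8b1 was not called lower as TPM or after quantile normalisation. In the cytokine receptor and SOCS list, 3 of 33 rose (Il27ra, Jak3 and Stat5a) and 2 fell (Socs1 and Ifngr1), and the median of -0.02 was 0.03 as TPM.

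Of 51 interferon-stimulated genes tested, 10 rose (19.6%) and 1 fell (1.96%), beside 4.65% and 5.51% of all genes, with a median of 0.05, and 9 to 18 rose across the 6 scalings. With 1 of the 6 libraries left out 6 to 8 rose, and 6 without siNTC plus TVA replicate 1 or 2 or siCreb1 plus TVA replicate 1. Gbp4, a guanylate-binding protein, was at 53.3, 51.8 and 52.8 FPKM in siNTC plus TVA and 62.6, 63.5 and 62.5 FPKM in siCreb1 plus TVA (fold change 0.25, limma adjusted p = 0.00281). Stat2, a subunit of the interferon-activated factor, rose by 0.24, Nlrc5, the transactivator of MHC class I genes, by 0.20, and Irf1 by 0.19. Without TVA 13 of the 51 rose, and the interaction was called in 1. Of 74 chromatin modifiers, 6 rose (8.11%) and 1 fell (1.35%), with a median of 0.05. Kmt2d, a histone methyltransferase of enhancers, was at 34.7, 34.8 and 35.0 FPKM against 43.3, 42.4 and 40.8 FPKM (fold change 0.27, limma adjusted p = 0.000851). Kmt2a, a related enzyme, rose by 0.19. Between 4 and 24 members rose across the scalings.

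In lists of metabolism and translation most members were not called, and the number called depended on scaling. Of 75 nuclear genes of oxidative phosphorylation, 17 fell and none rose, with a median of -0.13, but none fell as TPM, 2 after quantile normalisation, 15 by limma-voom, 20 after median centring and 6 to 11 when 1 of the 6 libraries was left out. Of 81 cytosolic ribosomal proteins 23 fell, against 2 as TPM, 2 after quantile normalisation, 34 by limma-voom, 28 after median centring and 6 to 11 with any 1 library left out. In this list Rps14 was the single member called under all 6 scalings, from 1366 ± 16.7 to 1198 ± 33.5 FPKM (SD, n = 3). Of 41 proteasome genes 6 fell, with 1 as TPM and 8 after median centring. Of 86 genes of mitochondrial translation 5 fell and 1 rose, a share of falls of 5.81% beside 5.51% over all genes. Of the 13 mitochondrially encoded genes 0 were called by limma and 0 had an unadjusted p under 0.05, with a median of -0.02 that was 0.03 as TPM.

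Stress and lipid lists had few calls. In the lists of this paragraph 5.36% to 12.9% of members were called lower and 0% to 7.89% higher, beside 5.51% and 4.65% of all genes tested. Of 36 ATF4 targets and amino acid stress genes 4 fell and none rose, with a median of -0.04 that was 0.00 as TPM; Trib3, a pseudokinase induced by ATF4, fell by 0.41 from 5.76 to 4.06 FPKM (limma adjusted p = 0.0142), a call lost without siCreb1 plus TVA replicate 2. Of 38 apoptosis genes 3 fell: Cdkn1a, the inhibitor p21, by 0.42, Ccng1 by 0.16 and Cycs, cytochrome c, by 0.15. Of 31 chaperone and unfolded protein response genes 4 fell and 1 rose. In the MYC and ribosome biogenesis list 3 of 56 fell and 2 rose, with a median of -0.04 that was 0.01 as TPM, and Myc itself was at 0.07 and not called. Glycolysis genes had 3 rises and 3 falls of 38; Slc2a3, a glucose transporter, rose by 0.19 and Ldha, lactate dehydrogenase, fell by 0.10. In the cholesterol and fatty acid synthesis list 3 of 37 fell and 1 rose, with a median of -0.01 that was 0.04 as TPM. Of 38 genes of fatty acid response and oxidation 3 fell and none rose, with a median of -0.03 that was 0.02 as TPM; Acadl and Acsl5, enzymes that break down and activate fatty acids, fell by 0.19 and 0.16. Cpt1a, the gate of mitochondrial fatty acid import, stood at -0.05 (SE 0.0419).

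**Figure D4:**
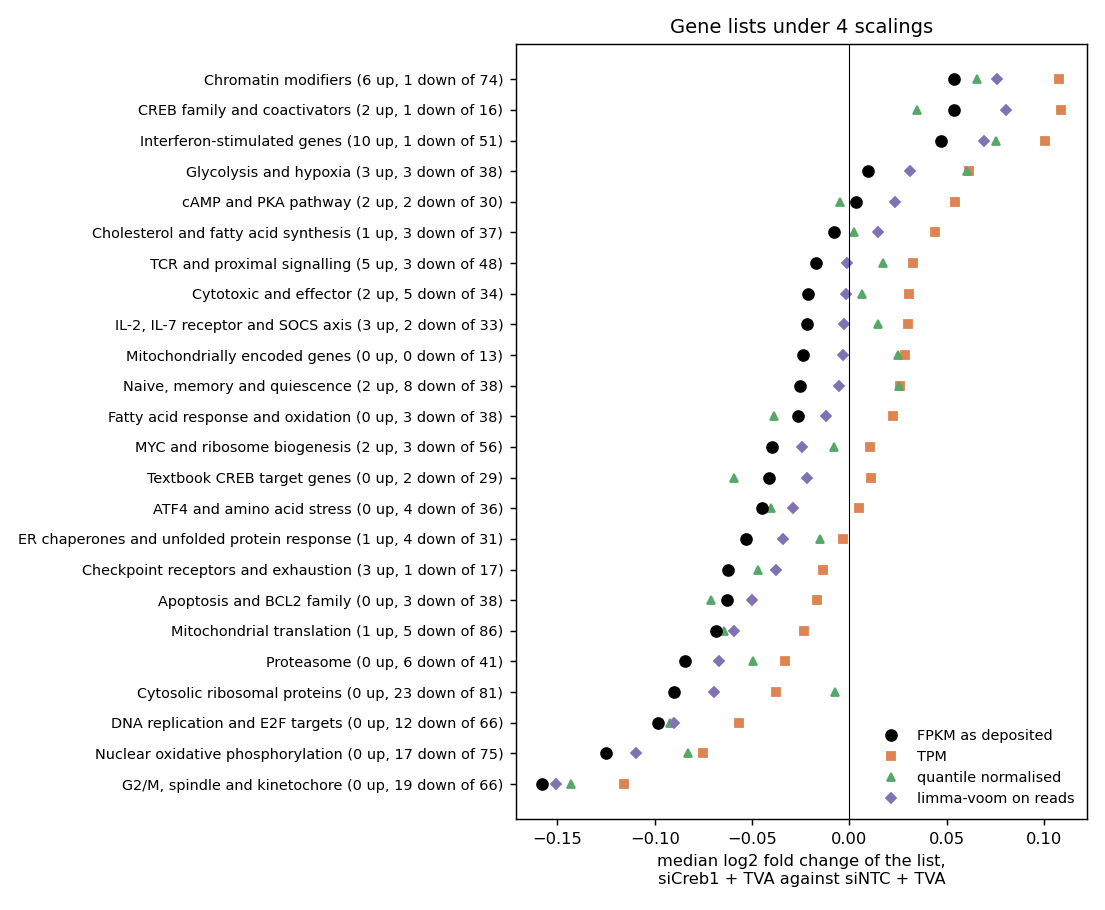
Median log2 fold change of each of 24 gene lists (rows) under 4 scalings (marker shapes), with the genes called higher and lower out of those tested as FPKM beside each name. The mitosis list is lowest under all 4 scalings, at -0.16 as FPKM and -0.12 as TPM, and several lists near zero change sign between FPKM and TPM.

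The study also knocked down 6 genes that it names as targets of TVA and CREB. It chose them from genes that changed only in siNTC plus TVA against the other groups, a rule unlike the comparison here. Il18, Ebi3, Tbx21 and Ilf2 were chosen as upregulated, and Foxo4 and Bcl6 from apoptosis-related categories. Apoptosis is among the categories the study reports for its downregulated genes. It reports that knockdown of each of the 6 genes partly reversed the effect of TVA on cell number. By gene set enrichment it also reports that Creb1 knockdown reversed the TVA-dependent rise of effector CD8+ T cell, E2F and MYC sets. That enrichment was not repeated here. Of the 6 genes, Tbx21, Ilf2, Bcl6 and Foxo4 were tested here and were not called. Tbx21, the factor T-bet, was at 17.3, 16.2 and 17.9 FPKM against 16.0, 17.9 and 18.7 FPKM, which overlap. Ilf2 stood at -0.01, Bcl6 at 0.18 and Foxo4 at 0.17, with SEs of 0.0548, 0.0913 and 0.0617. Il18 and Ebi3 were under the expression limit. Il18 had 4, 1 and 7 reads in siNTC plus TVA and 0, 1 and 2 in siCreb1 plus TVA, and Ebi3, a subunit of IL-27 and IL-35, had 21, 14 and 9 reads against 15, 8 and 4. Neither was tested.

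Called genes differed in length by direction. The median gene length was 5465 bases among the rises, 2902 among the falls and 3733 over all genes tested. In protein-coding genes split into 10 groups of equal size by length, 9.95% of the shortest were called lower and 1.04% higher, while among the longest 1.14% were called lower and 9.33% higher. Without TVA the shortest group had 9.84% lower and 3.11% higher and the longest 3.52% and 11.0%. The part of length in the list results was not tested. Non-coding and pseudogenes made up 99 of the 538 rises, including 25 lincRNAs and 22 antisense or intronic transcripts, and 37 of the 637 falls, including 23 pseudogenes. Over all 11571 genes tested they were 1924, including 211 lincRNAs, 243 antisense or intronic transcripts and 754 pseudogenes. Protein-coding genes were 83.4% of all tested, 81.6% of the rises and 94.2% of the falls.

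**Figure D5:**
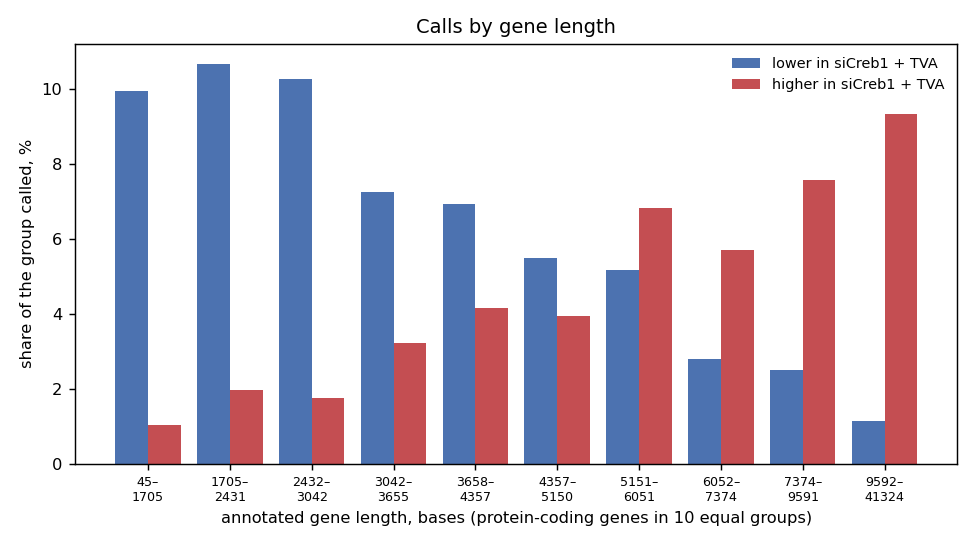
Share of protein-coding genes called lower (blue) and higher (red) in siCreb1 plus TVA, in 10 groups of equal size by annotated gene length in bases; bars start at 0. The share called higher is 1.04% in the shortest group and 9.33% in the longest, and the share called lower is 9.95% and 1.14%.

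Markers of the labelled cells were present: Cd8a was at 423 to 425 FPKM in siNTC plus TVA and at 450 in siCreb1 plus TVA. The summed FPKM of 10 CD8 T cell markers was 4489 to 4665 in siNTC plus TVA and 4250 to 4422 in siCreb1 plus TVA, with 1 of 10 members higher and 4 lower. These calls depended on the scaling: 2 were higher and 0 lower as TPM and after quantile normalisation, and 2 and 3 by limma-voom. Of the 10 only Cd8a, which rose, was called under all 6 scalings. Platelet genes were lower in the knockdown. Pf4, platelet factor 4, was at 66.3, 68.8 and 71.7 FPKM against 53.4, 53.7 and 51.4 FPKM (fold change -0.38, limma adjusted p = 0.00179), Ppbp fell by 0.33 and Itga2b by 0.26, and all 3 were called under all 6 scalings. The call of Itga2b was lost without siNTC plus TVA replicate 3 or siCreb1 plus TVA replicate 1 or 3. Of 9 erythroid and platelet markers these were the 3 that passed the expression limit, Hba-a2 and Hbb-bs were at 0 in all 6 libraries, and the sum ran from 156 to 160 FPKM in siNTC plus TVA and 121 to 127 in siCreb1 plus TVA. The sum was 163 to 172 in siNTC and 99.6 to 105 in siCreb1 without TVA. Slc6a4 and F2rl2, also known from platelets and megakaryocytes, fell with them. In bulk libraries fewer cells of a type and less RNA per cell cannot be told apart, and the part of platelet RNA in these falls was not tested.

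Summed myeloid markers were higher in the knockdown. The summed FPKM of 12 markers was 9.58 to 10.3 in siNTC plus TVA and 14.6 to 15.7 in siCreb1 plus TVA, none was at 0 throughout, and of the 2 above the expression limit Lyz2, lysozyme, rose by 0.40 (limma adjusted p = 0.0476), a call lost after quantile normalisation, with a pseudocount of 0.1, with all genes above 0 tested, without the mean-variance trend, in the fit of the 6 libraries alone and when any 1 of the 6 libraries was left out. The same sums without TVA were 10.7 to 11.3 in siNTC and 10.4 to 12.7 in siCreb1. Ccl6 and Gpnmb rose with them; the part of myeloid RNA in these rises was not tested. The sum of 9 B cell markers was 329 to 340 FPKM against 308 to 314. Ighm made up most of that sum and fell by 0.11, from 316 to 293 FPKM. Of the 4 B cell markers above the expression limit, 2 had a positive and 2 a negative fold change, with a median of 0.08. Cd79a and Cd79b were at 1.21 and 8.84 FPKM against 1.98 and 10.2 FPKM. By limma 1 of the 4 was called lower, and 0 as TPM. Dendritic markers (10, with Cd209a at 0) summed to 20.5 to 22.7 FPKM against 19.4 to 20.5, the 5 CD4 and regulatory T cell markers to 7.43 to 9.29 against 7.86 to 8.37, and the 7 NK markers to 19.9 to 20.7 against 21.5 to 23.3, with 0 members called by limma in these last 3 lists and 1, of the NK list, at an unadjusted p under 0.05.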

How the data were processed

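RNA-seq of activated mouse CD8+ T cells was deposited by the authors as 1 table of FPKM per library, with gene positions and lengths; the submitters' processing notes name GRCm38 and mm10, and the aligner and counter are not given in the sources used here. Total RNA was made into libraries with a SMARTER mRNA kit. Libraries were grouped by the labels. FPKM steps were turned into whole reads (tolerance 0.1 reads; at least 99.995% of values whole). Genes with a mean FPKM of 1 or more over the 6 libraries were tested as log2(FPKM + 1), in limma 3.58.1 (R 4.3.3) with a mean-variance trend, 1 coefficient for each of 4 groups fitted over all 12 libraries, and Benjamini-Hochberg adjustment at 0.05. The fit was tested on simulated data.

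Named genes were Creb1, the 12 largest rises and 12 largest falls with non-overlapping libraries, the 6 target genes the study knocked down, and up to 8 called members of each of 31 lists with others whose role the text states; a few of them are not reported here. The members and lists were chosen with earlier results of these data known. Alternatives were a pseudocount of 0.1, other filters, quantile normalisation, TPM, TPM without genes under 200 bases and median centring (the last pair added after seeing the data), limma-voom on recovered reads, no trend, a fit of the 6 libraries alone, a replicate block and leaving out each of the 6 libraries. Same-numbered libraries did not deviate together. Promoters were RefSeq's of GRCm38.p6, matched by Entrez ID or symbol.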

Additional observations from a re-analysis of the deposited data

Results flagged for a closer look

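The effect of Creb1 knockdown differed between cells with and without TVA in 268 genes, by the limma interaction over 12 libraries at an adjusted p under 0.05. Values below are that difference, on the log2(FPKM + 1) scale, with a negative sign where the effect was lower with TVA. Among replication genes it was -0.38 for Pcna, -0.38 for Cdt1, -0.57 for Rrm2, -0.33 for Pold2, -0.29 for Slbp, -0.42 for Asf1b and -0.37 for Mcm7. Among mitosis genes it was -0.40 for Cdc20, -0.52 for Cdca3, -0.26 for Cdc25b, -0.50 for Cenpm, -0.54 for Sgo1, -0.51 for Cdk1, -0.61 for Aurkb and -0.46 for Ube2c, and for the proliferation antigen Mki67 it was -0.49. In the T cell genes Gzmb, granzyme B, and Il7r, the interleukin-7 receptor, it was -0.38 and 0.28. Serpinb6b, a serine protease inhibitor, had -0.43, and S1pr1, Myb and Dgka had 0.22, 0.21 and 0.21. Ccna2 had -0.44, Ran -0.28, Acsl5 -0.22, Ndufb3 -0.32 and Aldoa 0.17, and the platelet gene Ppbp had 0.47. Gzmb rose by 0.43 on knockdown without TVA and stood at 0.05 with it.

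The chemokine Ccl6 had a difference of 0.77 and Gpnmb one of 0.48, beside the higher summed myeloid markers in siCreb1 plus TVA; the part of myeloid RNA was not tested. The snRNA Gm25618 had -1.67, from 4, 4 and 5 reads in siNTC plus TVA against 0 in siCreb1 plus TVA. Its means without TVA were 0.150 FPKM in siNTC and 0.149 FPKM in siCreb1. The limit of 1 FPKM used only the 6 TVA libraries, and Gm25618 passed it only through siNTC plus TVA. Gpnmb, at 0.966 FPKM in siNTC plus TVA, passed it only through siCreb1 plus TVA. The interactions of both genes therefore draw on the values that let them in.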

How the results depend on the processing

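Creb1 kept its direction and its call in all 18 alternatives, with a fold change from -2.92 to -2.22. The 1175 calls became 733 when all genes above 0 were tested and 743 as TPM. With siNTC plus TVA replicate 1, 2 or 3 left out they were 759, 658 and 752, and with siCreb1 plus TVA replicate 1, 2 or 3 left out 604, 606 and 676, fits with fewer samples. The 538 rises became 915 by limma-voom, 1009 as TPM without genes under 200 bases, and 292 to 381 with 1 library left out. The 637 falls became 351 with all genes above 0, 348 after quantile normalisation, 121 as TPM, 238 as TPM without genes under 200 bases, and 292 to 391 with 1 library left out. The 1591 calls without TVA became 1049 with all genes above 0, and 1455 to 1537 with 1 TVA library left out. The 268 interactions became 176 with all genes above 0, 153 as TPM, 446 by limma-voom, and 173 to 195 with 1 library left out. Of 204 named genes other than Creb1, 68 to 81 lost their call with 1 library left out, 83 as TPM, 58 after quantile normalisation and 26 by limma-voom. The 204 include genes that were not called as reported and so had no call to lose. The single reversed gene was Rpl36, at 0.018 after quantile normalisation. Apart from the settings with fewer samples or more genes tested, the cause was not tested.

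Same-numbered libraries of the 2 TVA groups deviated with correlations of -0.03, -0.05 and -0.06, so the numbers were not treated as pairs; the replicate block gave 975 calls with TVA, 1390 without it and 196 interactions. Low-read short RNAs limit the top of the ranking.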
